A study of Mus musculus with 2 samples.

Results

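Vesicle coat and trafficking genes were examined for YY1 binding in muscle stem cells (MuSCs). They are the protein-coding genes of the GENCODE M21 basic annotation whose symbols begin with Rab, Vps or Sec and a number, together with the COPI genes, the Arf GTPases 1 to 6 and the clathrin chains, 150 of 21938 protein-coding genes. The rule reads symbols and uses no measured value. A gene was counted as bound when the summit of a YY1 peak, the base with the most DNA fragments, lay within 1000 bp of the start site of one of its transcripts. The values come from 1 list of YY1 peaks, called against 1 library labelled input, described as IgG in the study's methods. The cells came from Ctrl mice of the study (Pax7CreERT2/R26YFP; Yy1+/+; mdx), which carry the dystrophin mutation mdx and a tamoxifen-dependent Cre driven by the MuSC gene Pax7, with a YFP reporter that Cre switches on, but keep intact Yy1. MuSCs of many such mice were mixed into 1 sample. In the study's text the cells are freshly isolated, whereas the labels give a culture protocol and the genotype WT. A peak list holds no RNA, so the identity of the cells could not be checked against marker genes, and YY1 binding could not be compared with expression.

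Membrane traffic moves proteins between organelles in vesicles. Coats shape the vesicle and choose its cargo: COPII leaves the endoplasmic reticulum (ER), COPI works at the Golgi and clathrin at the trans-Golgi network, endosomes and plasma membrane. Arf GTPases recruit coats, Rab GTPases give each membrane its identity and recruit tethers and motors, and the Vps proteins form the complexes of endosomes and lysosomes. Muscle fibres and their stem cells depend on this machinery for secretion, receptor recycling and membrane repair. YY1 is a zinc-finger protein that binds at the promoters of many broadly expressed genes and can activate or repress them.

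The sequences at the strongest summit and at the places of the study's motif near summits are given first. All are reference sequence of GRCm38, the build that mm10 also names, and are written in the direction of transcription of the gene. The peak at Cltc had the highest fold enrichment among the 150 genes. The 60 bases around its summit, chr11:86757585-86757644 on the minus strand, lie upstream of the gene and hold neither the study's motif AANATGGC nor its core ATGGC on either strand:
Cltc: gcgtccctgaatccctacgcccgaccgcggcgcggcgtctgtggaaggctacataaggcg

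The next lines show the 9 places where AANATGGC, on either strand, lay within 100 bp of the summit of a bound member. The 8 bases of the motif are in capitals with 11 bases on each side. The lines are centred on the motif, 2.5 to 77.5 bp from the summit, and not all of them contain the summit base. Where the capitals begin with GCC, the motif lies on the strand opposite to the gene.
Arf1 (chr11:59228206-59228235): ccgtcagcgccGCCATCTTgtgggagcgaa
Rab1a (chr11:20201420-20201449): gttcgccggcgGCCATTTTgggtggaagcg
Rab22a, distal copy (chr2:173659504-173659533): cccactcacccGCCATCTTaggatgtgcca
Rab22a, proximal copy (chr2:173659609-173659638): actcacccgccGCCATCTTgggacgggtgg
Rab28 (chr5:41708125-41708154): gggaggagggcAAGATGGCggccggtgagt
Rab4b (chr7:27178759-27178788): gcggctgcggcGCCATATTgcggccctcag
Rab8b (chr9:66919618-66919647): gccggagtgagAAGATGGCgaagacgtacg
Sec62 (chr3:30793334-30793363): gcggagcggccAACATGGCggaacgcaggc
Vps11 (chr9:44361616-44361645): gggccttcggcAAGATGGCggcctacctgc

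YY1 occupied the promoters of 46 of the 150 trafficking genes, and 104 had no summit in the window. The bound share was 30.7% (95% exact binomial interval 23.4% to 38.7%), against 18.8% of all protein-coding genes (4119 of 21938). Intervals here cover counting error only, since the experiment has 1 library and no replicates, and no test was made. The share was 37.1% for the Vps genes (13 of 35, interval 21.5% to 55.1%). It was 28.99% for the Rab genes and their partners (20 of 69, 18.7% to 41.2%) and 24.1% for the Sec genes (7 of 29, 10.3% to 43.5%). Of the 22 subunits and scaffolds of the clathrin, COPI and COPII coats, 5 (22.7%, 7.82% to 45.4%) were bound. These intervals overlap, and all hold the 34.6% of protein-coding genes with CpG-rich promoters, described further on. All but that of the Vps genes also hold the 18.8% of all protein-coding genes. Each bound member had exactly 1 peak in its promoters. With a fold enrichment of at least 5 required, 25 members (16.7%) remained, against 11.1% of all protein-coding genes, and none of COPII, retromer, HOPS and CORVET or the late endosomal Rabs was among them.

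The signal at the bound members was of the usual height for this list. The deposited fold enrichment compares the fragments at the summit with the local background. Its median was 5.07 at the 46 members, with a range from 3.23 at Rab40c to 12.1 at Cltc, and 5.13 at the 4119 bound protein-coding genes. The number of fragments at each summit, recovered from the deposited values, ranged from 10 to 42 with a median of 15 at the members, and the median was also 15 over all bound genes. The members' peaks were 215 to 905 bp wide, with a median of 360 bp (368 bp over all bound genes). The whole list holds 4681 peaks with 8 to 394 fragments at the summit, from a library of about 13357713 fragments as implied by the most frequent local background. The study's reporting summary gives nearly the same number as uniquely mapping reads, so the units counted here as fragments may be reads. A member without a summit is therefore a gene at which no peak passed the authors' limit at this depth, which does not show that YY1 was absent.

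**Figure D1:**
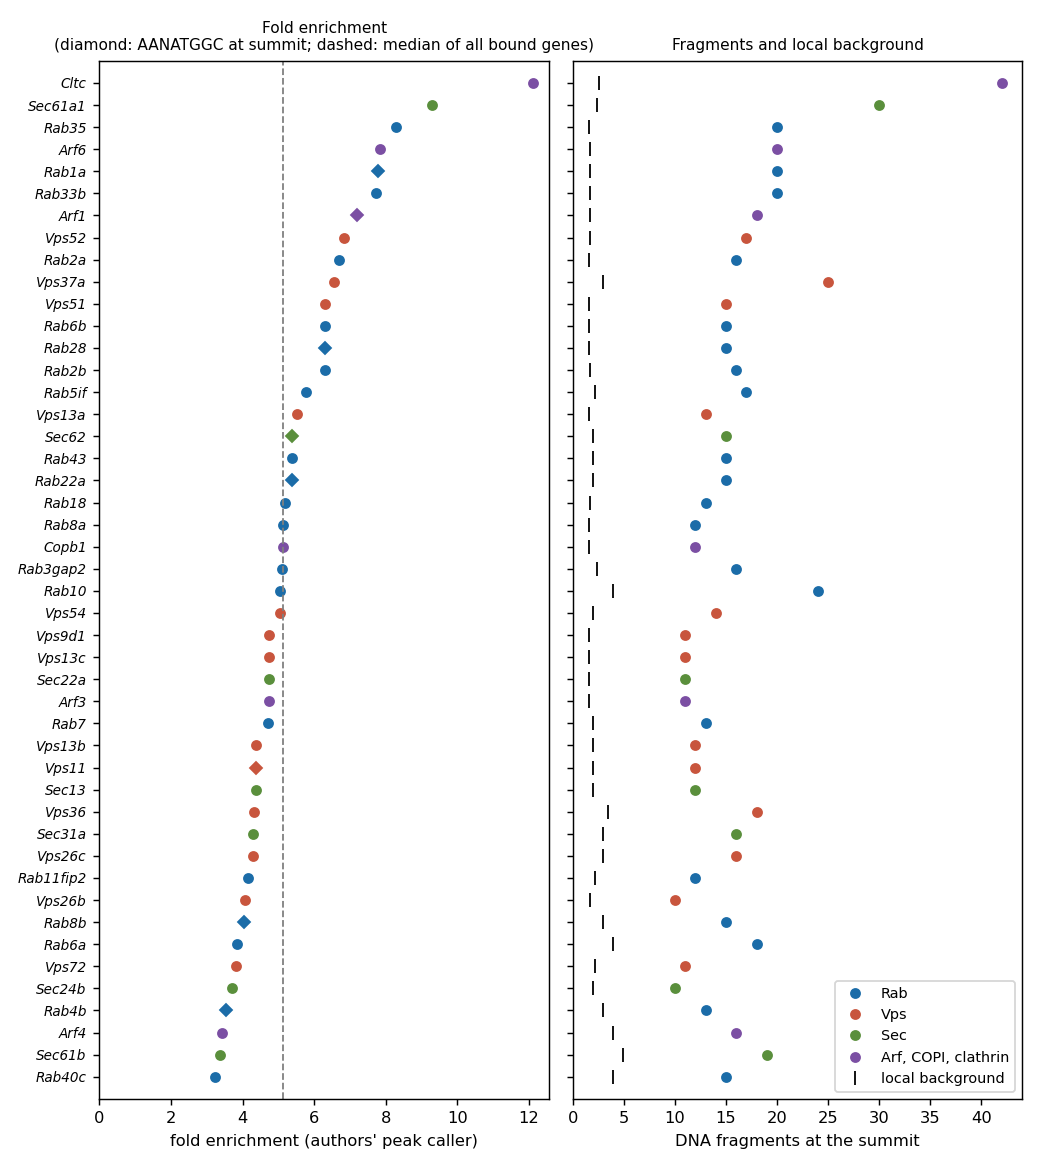
The 46 bound members in order of fold enrichment (left, linear axis; diamonds have AANATGGC within 100 bp of the summit, and the dashed line is the median of 5.13 over all bound protein-coding genes) and the DNA fragments at each summit with the local background as ticks (right, linear axis). Cltc and Sec61a1 stand above the rest, and fragments range from 10 to 42.

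Clathrin forms the three-legged lattice of endocytic vesicles. Cltc, its heavy chain, had 42 fragments over a local background of 2.55, a fold enrichment of 12.1 and a peak from 86757450 to 86758279 on chromosome 11, with the summit 50 bp upstream of the start site. The exact Poisson p of the authors' peak caller was 4.06e-37, and only 4 of the 4119 bound genes had a higher fold enrichment at a promoter. The light chains Clta and Cltb had no promoter summit. Of the COPI subunits, only Copb1, the beta subunit, was bound, with 12 fragments over 1.54 and a fold enrichment of 5.13, and its summit lay 104 bp downstream of the start site in the UTR. Copa, Copb2, Cope, Copg1, Copg2, Copz1 and Copz2 were not bound. The interval of the COPI share (1 of 8 genes, 0.316% to 52.7%) holds both the 18.8% of all protein-coding genes and the 34.6% of those with CpG-rich promoters.

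Of the 6 Arf genes, 4 were bound (66.7%, interval 22.3% to 95.7%), beside 18.8% of all protein-coding genes and 34.6% of those with CpG-rich promoters, the class of all 6 Arf genes. The interval holds the second share and begins above the first, and no test was made. With a fold enrichment of at least 5 required, 2 of the 6 remained, against 11.1% of all protein-coding genes. Arf6, which works at the plasma membrane, had 20 fragments over 1.68 (fold enrichment 7.84) in a peak 905 bp wide, whose summit was 31 bp upstream of the start. Arf1, which recruits COPI and clathrin adaptors at the Golgi, had 18 fragments over 1.64 (7.21) with the summit 53 bp downstream. The other two were weaker. Arf3 had 11 fragments over 1.54 (4.73) with its summit 1 bp upstream, and Arf4 had 16 over 3.95 (3.43) with its summit 88 bp downstream. Arf2 and Arf5 were not bound, and the nearest summit lay 1805 bp upstream of the start site of Arf5.

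Sec proteins carry cargo into and out of the ER. In the COPII coat, 3 of 11 genes were bound (27.3%, interval 6.02% to 61.0%), each with a fold enrichment under 5. This interval and that of the translocon below hold both the 18.8% of all protein-coding genes and the 34.6% of those with CpG-rich promoters. Sec13, an outer coat subunit that is also part of the nuclear pore, had 12 fragments over 1.98 (4.37). Sec31a, its partner in the outer cage, had 16 over 2.96 (4.29) with the summit at the start site itself. Sec24b, a cargo-binding subunit, had 10 over 1.98 (3.70). The inner coat genes Sec23a and Sec23b, the other Sec24 genes, Sec31b and the exit-site scaffolds Sec16a and Sec16b were not bound. The ER translocon, through which new proteins enter, had 3 bound genes of the 8 that also include signal peptidase (37.5%, interval 8.52% to 75.5%). Sec61a1, the channel itself, had the second highest fold enrichment among the members, 9.29, with 30 fragments over 2.34 and a summit 10 bp downstream of the start site. Sec62, a translocation factor and ER-phagy receptor, had 15 over 1.98 (5.38), and Sec61b, the small beta subunit, 19 over 4.94 (3.37). Among the other Sec symbols only Sec22a was bound (11 over 1.54, 4.73). The lipid-binding Sec14l genes and Sec1, a fucosyltransferase gene that shares only the symbol, were not.

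Rab GTPases of the ER and Golgi were bound at 8 of 14 genes (57.1%, interval 28.9% to 82.3%), beside 3 of 16 of early and recycling endosomes, 1 of 10 of late endosomes and lysosomes and 3 of 13 of secretory vesicles. The share of all protein-coding genes was 18.8%, and that of coding genes with CpG-rich promoters, described further on, was 34.6%, inside the interval of the ER and Golgi Rabs. These groups were not tested against each other, and their intervals overlap. Rab1a, which directs ER-to-Golgi transport, had 20 fragments over 1.70 (fold enrichment 7.78) with its summit on the start site. Its close relative Rab1b was not bound. Rab33b, a Golgi and autophagosome Rab, had 20 over 1.72 (7.72) and Rab2a 16 over 1.54 (6.70). Rab2b (6.30), Rab6b (6.31), Rab43 (5.38), Rab18 (5.19) and Rab6a (3.84) completed the group. Both genes of the Rab2, Rab6 and Rab8 pairs were bound, whereas none of Rab5a, Rab5b and Rab5c, neither Rab11 gene and none of the 4 Rab3 genes had a summit in the window. Like the Rab1 pair, other pairs were split: Rab4b, Rab7, Rab33b and Rab40c were bound, and Rab4a, Rab7b, Rab33a and Rab40b were not.

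Rab35, which governs fast recycling to the plasma membrane, was the strongest Rab, with 20 fragments over 1.54, a fold enrichment of 8.28 and a summit 69 bp upstream of the start site. The other endosomal Rabs were Rab22a (15 over 1.98, 5.38) and Rab4b (13 over 2.96, 3.53). Rab7, the main late endosomal Rab, had 13 over 1.98 (4.70). Of the secretory Rabs, Rab8a had 12 over 1.54 (5.13), Rab10, which brings glucose transporters to the surface, 24 over 3.95 (5.05), and Rab8b 15 over 2.96 (4.04). Rab10 had more fragments than Rab35 but also a higher local background, and hence a lower fold enrichment. Rab28, a ciliary Rab, had 15 over 1.54 (6.31), and Rab40c, a substrate adaptor of ubiquitin ligases, 15 over 3.95 (3.23). The Rab partners with a summit were Rab5if (5.76), Rab3gap2 (5.10), a subunit of an activator of Rab3 and exchange factor of Rab18, and the Rab11 effector Rab11fip2 (4.16).

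Among the Vps genes GARP, a tether of the trans-Golgi network, and EARP, its relative at recycling endosomes, were bound at 3 of 5 genes (interval 14.7% to 94.7%). The groups of Vps genes are small, and their intervals all hold the 34.6% of coding genes with CpG-rich promoters and, apart from that of the Vps13 genes (19.4% to 99.4%), the 18.8% of all coding genes. Vps52 had 17 fragments over 1.64 (fold enrichment 6.83), Vps51 15 over 1.54 (6.31) and Vps54 14 over 1.98 (5.04), while Vps50 and Vps53 had no summit. Of the 4 Vps13 lipid transfer genes, Vps13a (5.52), Vps13c (4.73) and Vps13b (4.37) were bound and Vps13d was not. HOPS and CORVET, which tether endosomes and lysosomes, had 1 bound gene of 8: their shared subunit gene Vps11, with 12 over 1.98 (4.37) and a summit 48 bp downstream of the start site in the first coding exon. Retromer and its relative retriever, which return receptors from endosomes, had Vps26c (16 over 2.97, 4.28) and Vps26b (10 over 1.70, 4.08), with summits 213 and 234 bp downstream, but neither Vps35 nor Vps29. In the ESCRT group, Vps37a of ESCRT-I had 25 over 2.96 (6.56) and Vps36 of ESCRT-II 18 over 3.40 (4.32), and neither Vps4 gene was bound. Vps9d1 (4.73) and Vps72 (3.82) were bound as well, of which Vps72 encodes a subunit of a chromatin remodelling complex and not a trafficking factor.

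**Figure D2:**
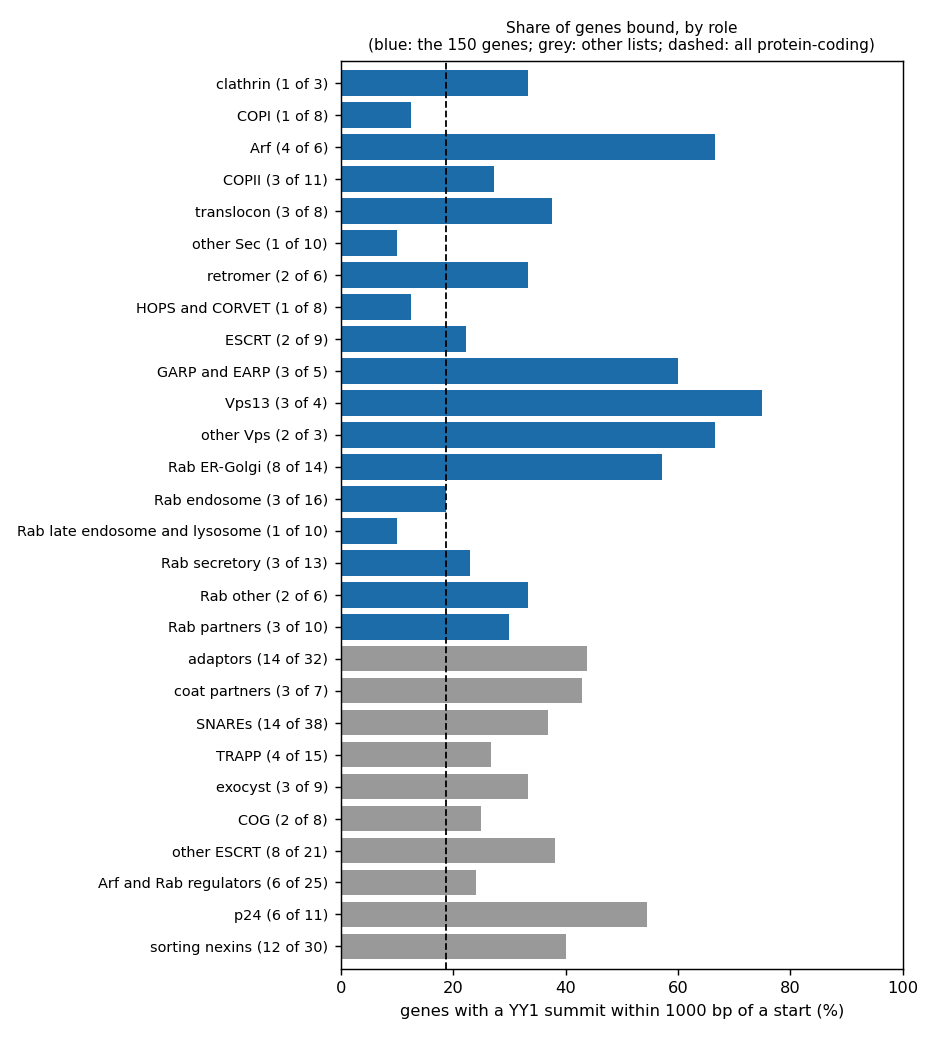
Percent of genes with a YY1 summit within 1000 bp of a start site, for the role groups of the 150 genes (blue) and for lists of other trafficking genes (grey), with counts beside each name. The dashed line is the 18.8% of all protein-coding genes, and groups of few genes have wide intervals that are not drawn.

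Trafficking genes outside the 150 were bound at a similar share. Of 196 such genes, 72 (36.7%, interval 29.98% to 43.9%) had a promoter summit, with a median fold enrichment of 5.24. All protein-coding genes stood at 18.8%, and those with CpG-rich promoters at 34.6%, which lies inside this interval. The adaptor complexes, which link clathrin to cargo, were bound at 14 of 32 genes, the SNAREs of membrane fusion at 14 of 38, the sorting nexins at 12 of 30, the remaining ESCRT genes at 8 of 21 and the p24 cargo receptors at 6 of 11. The tethers TRAPP, exocyst and COG followed with 4 of 15, 3 of 9 and 2 of 8, and regulators of Arf and Rab GTPases with 6 of 25. Of the 7 partners that complete or start coats, Mia2 (fold enrichment 8.10), Sar1a and Tfg were bound. The highest values were at Chmp6 of ESCRT-III (9.75), the Arf exchange factor Arfgef1 (9.63) and Stam2 of ESCRT-0 (9.26), named here after their values were seen.

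The share of bound members was set beside the sequence class of their promoters. CpG islands, stretches rich in the dinucleotide CpG, mark the promoters of many broadly expressed genes. A promoter, read from the genome from 250 bp before to 50 bp after each start site, was called CpG-rich when its CpG count was at least 0.6 of that expected from its base composition and its G+C content at least 50%. By this rule 116 of the 150 members (77.3%) and 10920 of all protein-coding genes (49.8%) had a CpG-rich promoter. Of the CpG-rich members 41 were bound, or 35.3% (26.7% to 44.8%), against 34.6% of all CpG-rich protein-coding genes. Within this class the members' share lay near the background. Of the other 34 members, 5 were bound (14.7%, 4.95% to 31.1%), against 3.09% of all other protein-coding genes. These 5 are Copb1, Sec62, Vps13b, Vps51 and Vps72. With promoters taken from RefSeq, which were listed for 120 members and 75.4% of the coding genes, 1 of 28 such members (3.57%) and 4.27% of such genes were bound. That order is the opposite one, with an interval of 0.0904% to 18.3% for the members that holds the value of the coding genes. This setting changed both the promoter sequences and the genes kept, and the cause of the reversal was not tested. The order within the CpG-rich class was also not stable: with limits of 0.75 and 55%, 39.5% of the CpG-rich members and 41.4% of such coding genes were bound, and 12 of 64 other members (18.8%) against 6.47%.

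**Figure D3:**
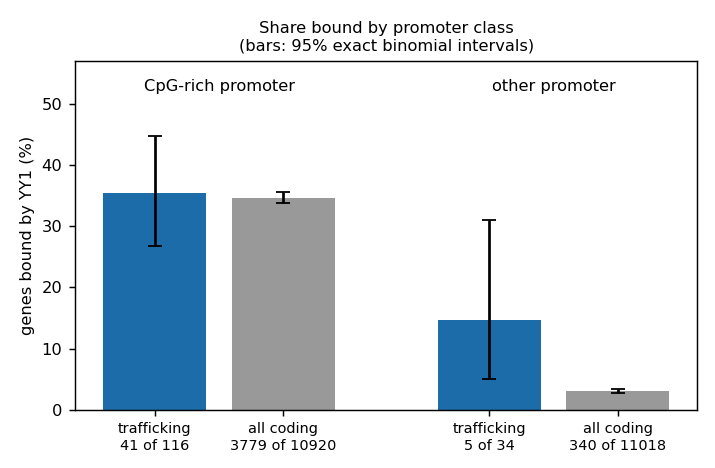
Percent of genes bound by YY1 among genes with CpG-rich promoters (left pair) and other promoters (right pair), for the trafficking genes (blue) and all protein-coding genes (grey), with 95% exact binomial intervals. The CpG-rich pair stands at 35.3% and 34.6%, and the interval of the 5 of 34 other members is wide.

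The summits lay close to the start sites. From the nearest start site of the member to its summit the median was 56 bp, and 107 bp over all bound protein-coding genes. For 34 of the 46 members (73.9%) it was at most 100 bp, against 47.9% of all bound genes. Upstream of the start by more than 100 bp lay 5 summits (10.9%, against 25.9%), and downstream by more than 100 bp 7 (15.2%, against 26.2%). By the basic annotation 24 summits fell in a UTR of the member, 3 in a coding exon and 17 outside the gene. The other 2 lay within the bounds of the gene but in no exon. That of Sec22a was in an intron, and that of Arf3 was 1 bp upstream of its only start site. The members farthest inside the window were Vps54, with a summit 473 bp upstream, Sec62, 411 bp downstream, and Sec61b, 235 bp upstream. The nearest outside were Arf5 (1805 bp upstream), Cltb (2552 bp downstream, in an intron) and Rab17 (3827 bp upstream), so that no member had its nearest summit between 473 and 1805 bp. The members without a promoter summit had their nearest summit at a median of 68.8 kb.

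**Figure D4:**
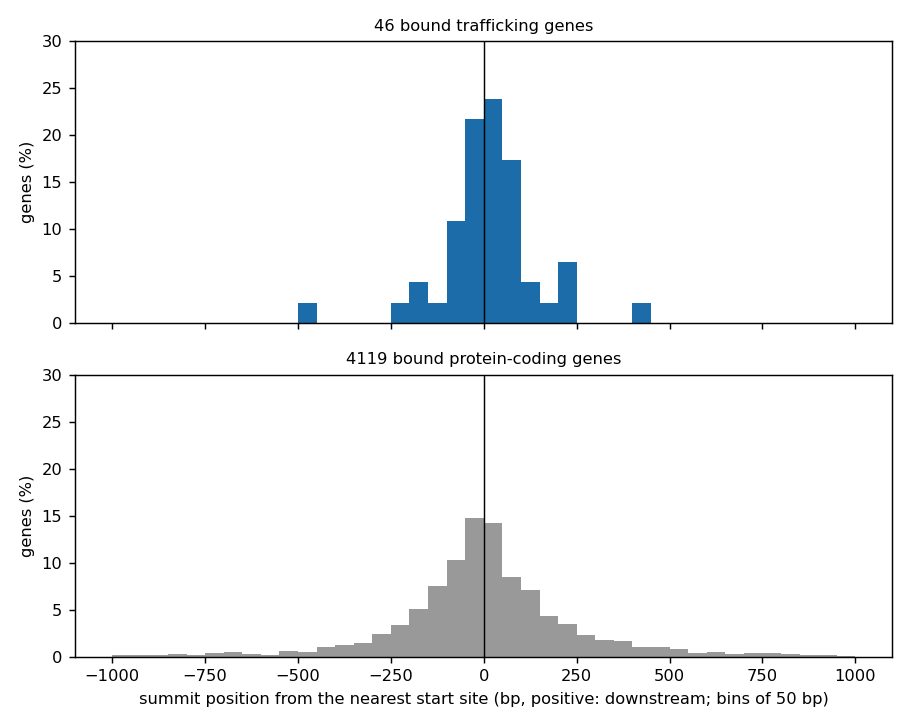
Position of the promoter summit from the nearest start site, in bins of 50 bp, as a percent of the 46 bound trafficking genes (top) and of the 4119 bound protein-coding genes (bottom), with downstream positive. The members' summits run from 473 bp upstream to 411 bp downstream, and the full set fills the whole window.

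Of the 46 bound members, 8 (17.4%) share the summit with the promoter of another protein-coding gene, against 26% of all bound protein-coding genes, on either strand. The members' count depended on the window: it was 13 with 5000 bp either side and 4 with 1000 bp upstream to 100 bp downstream. All 8 partners of the members start on the opposite strand. A single summit there cannot be given to either gene. At 5 of them the summit was nearer to the member: Arf6 (with the predicted gene Gm9887), Rab2b (Tox4), Rab6a (Mrpl48), Vps26b (Ncapd3) and Vps52 (the ribosomal protein gene Rps18). At Vps37a the summit lay 40 bp upstream of its own start and 11 bp downstream of that of Cnot7, a deadenylase gene. At Sec61b it was 235 bp away, and 90 bp from Alg2, and at Vps9d1 89 bp away, and 14 bp from Zfp276. Among the members with a promoter of their own, 28 of 38 (73.7%) had the summit within 100 bp of the start, against 49.4% of the 3048 such protein-coding genes, so that the closeness to the start was also seen without shared promoters.

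AANATGGC lay within 100 bp of the summit at 8 of the 46 bound members, or 17.4% (7.82% to 31.4%), against 8.25% of all bound protein-coding genes, a background inside that interval. The members are Rab1a, Arf1, Rab28, Rab22a, Sec62, Vps11, Rab8b and Rab4b, whose fold enrichments ran from 7.78 down to 3.53. None of them shares its promoter with another coding gene. The 4 members with the highest fold enrichment, Cltc, Sec61a1, Rab35 and Arf6, did not have it. The count depended on the rule: 5 bound members had AANATGGC within 50 bp of the summit, and 16 had the core ATGGC within 100 bp. In the sequences above, the open base was G in 6 of 9 places, and in 56.2% of the 354 places at all bound genes. At Arf1 and Rab1a the motif was centred 3.5 and 2.5 bp from the summit, and at Vps11 8.5 bp. Rab22a carried 2 copies 105 bp apart, both on the strand opposite to the gene and upstream of its start.

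At 3 of the 9 places the ATG of the motif is the annotated start codon of the gene. These are Rab8b, Sec62 and Vps11, where the printed capitals continue into the coding sequence, and the first base of the motif lies 51, 470 and 36 bp downstream of the start site. Over all bound protein-coding genes this held for 88 of 354 places (24.9%). The motif lay on the strand of the gene at 4 of the 9 places, and at 58.2% of those of all bound genes. Presence of the letters is a description of the sequence and does not show which base YY1 touched.

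Motif letters in the promoter, from 250 bp before to 50 bp after any start site, were not limited to the bound members. They were present at 6 of the 46 bound members (13.0%) and at 9 of the 104 others (8.65%), namely Arf2, Cltb, Copa, Rab13, Rab14, Rab30, Rab3gap1, Sec16a and Sec23a. Of all protein-coding genes 9.07% held them in such a window, and of the bound ones 14.3%.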

How the data were processed

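YY1 ChIP-seq was performed by the authors on MuSCs mixed from Ctrl mdx mice. Per the labels and the study's methods, reads were trimmed and filtered, mapped to mm10 with Bowtie2, reduced to non-redundant reads and passed to MACS2 for peak calling against the input (IgG) library, which has no peak file and was not analysed here. Program versions are not given in the sources used here. The deposited peak list holds the fold enrichment, a ratio of summit to local background, and, per peak, p-values and q-values as −log10; the largest p-value in it was 7.59e-05.

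Summits were placed against start sites of the GENCODE M21 basic annotation (GRCm38). MACS2 computes the fold as fragments plus 1 over local background plus 1, from which whole numbers of fragments were recovered for all 4681 peaks (−log10 p within 0.001). The depth assumes a fragment length of 215 bp, the narrowest peak. AANATGGC was searched on both strands. Intervals are 95% Clopper-Pearson. The planned RefSeq promoter table listed 75.4% of the coding genes, so promoters were read from the genome instead, a choice made after seeing the data. Of the 198 listed other trafficking symbols, 2 were not found, and 1 symbol held by more than 1 gene entry was counted once.

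The members and lists were chosen with earlier results of these data known. The rule for named genes took the 10 members with the highest fold, the bound clathrin, COPI, COPII, Arf, retromer, HOPS and CORVET genes, those with the motif and those nearest to the edge of the window; the values of other bound members were added after they were seen. Alternatives changed the window, the peak limits, the start sites, the placement, the motif and the CpG rule. Placement, motif search and recovery of fragments were tested on simulated data. Scripts used matplotlib 3.10.9, pysam 0.24.0, scipy 1.17.1, pandas 2.3.3 and numpy 2.4.6 under Python 3.11.15.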

Additional observations from a re-analysis of the deposited data

How the results depend on the processing

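No paired analysis was possible because only a single YY1 peak list was analysed, with no groups of replicates. The ratio of the members' bound share to that of all protein-coding genes stayed between 1.495 and 1.78 under the peak limits, windows and start sites tried. All these settings keep the background of all protein-coding genes. Within CpG-rich promoters the shares were 35.3% of members and 34.6% of coding genes, and within other promoters 14.7% and 3.09%. A fold enrichment of at least 5 left 25 bound members (16.7%, against 11.1% of coding genes), a median fold of 6.31, 5 members with the motif, 4 in shared promoters and 43 other trafficking genes, with COPII, retromer, HOPS and CORVET, the late endosomal Rabs, the other Sec and the other Vps genes at 0. At this limit the Arf genes fell from 4 to 2, the Vps13 genes from 3 to 1, and ESCRT and the group of Rab28 and Rab40c from 2 to 1. The bound share of coding genes was 17.7%, 19.3% and 20.4% with windows of 500, 2000 and 5000 bp, 14.6% with 1000 bp upstream to 100 bp downstream (39 members bound, without Copb1, Vps26b, Vps26c, Sec22a, Sec62, Rab33b and Rab6b, which left COPI, retromer and the other Sec genes at 0), 17.4% with a q-value under 0.01 and also 17.4% with 1 start per gene. Giving each summit only to the nearest start, an alternative added after seeing the data, made it 16.4%, with 43 members bound (28.7%). The translocon then had 2 bound genes, and ESCRT and the other Vps genes 1 each. Members in shared promoters numbered 13 with the window of 5000 bp and 4 with the narrow downstream side. The shares of shared promoters over all bound genes with these windows were not computed. The motif was at 5 members within 50 bp of the summit, at 5 with G as its open base and at 16 as the core ATGGC. The shares over all bound protein-coding genes under these motif rules were not computed. With a stricter CpG rule (0.75 and 55%) the shares over all coding genes were 41.4% and 6.47% for CpG-rich and other promoters, and those of the members 39.5% and 18.8%. RefSeq promoters gave 35.8% and 4.27%, with 3.57% of the other members, and the first listed RefSeq promoter, added later, 36.4%, 5.38% and 3.45%. The causes of these shifts were not tested. The comprehensive annotation, also added later, left 46 bound members.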

Other observations

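A YY1 summit lay in an intron, outside the promoter windows, at Cltb, Sec22c and Rab31. The peak in Cltb, a clathrin light chain gene without a promoter summit, lay on chromosome 13 from 54608627 to 54608883 with 13 fragments over 1.98 (fold enrichment 4.70). The peak in Sec22c, on chromosome 9 from 121697564 to 121697972, had 31 fragments over 4.94 (5.39), and its summit lay 7151 bp downstream of the start site. The peak in Rab31, on chromosome 17 from 65702004 to 65702466, had 13 fragments over 2.96 (3.53) at 70376 bp from the start site. None of these 3 genes was counted as bound.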
